A study of Mus musculus with 24 samples.

Results

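The 8 genes Pou2f3, Gfi1b, Trpm5, Rgs13, Dclk1, Avil, Il25 and Alox5 were followed across RNA-seq libraries of mouse colorectal tissue as genes of the tuft cell, a rare epithelial cell type of the gut. They were taken by symbol, and all 8 were among the 24346 symbols listed for each library. The study compared tissue labelled c-MAF knockout (KO) with tissue labelled wild type (WT). c-MAF, encoded by Maf, is a basic leucine zipper transcription factor. Every sample of both labels had the treatment AOM/DSS, azoxymethane followed by dextran sulfate sodium: the first is a carcinogen and the second inflames the colon, and mice given both develop colon tumors. The comparison of tumor with normal tissue is therefore one between 2 kinds of treated tissue. There were 14 tumor and 10 normal libraries.

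The groups come from the sample titles. The KO label covered 3 title groups, KO-1-hetero and KO-8-hetero (worded as heterozygous) and KO-8-homo (worded as homozygous), with 3 tumor and 2 normal libraries in each. The WT label covered WT-young, with 4 tumor and 2 normal libraries, and WT-old, with 1 tumor and 2 normal libraries. What the leading numbers 1 and 8 stand for, the allele, the cells in which it was altered, the strain and the ages behind young and old are not given in the sources used here. Nor do the labels say whether replicates came from separate animals, so the p-values below measure the spread between these samples, which may be technical in part.

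Tuft cells are chemosensory cells that carry a tuft of long microvilli. POU2F3 is the transcription factor they depend on, and they detect luminal signals through a G protein cascade that ends in the cation channel TRPM5. They are the main epithelial source of interleukin 25, which calls group 2 innate lymphoid cells, and they also make leukotrienes and prostaglandins. Several of the 8 genes have another well known site of expression: Pou2f3 in stratified squamous epithelium, Gfi1b in megakaryocytes and red cell precursors, Rgs13 in germinal centre B cells and mast cells, Dclk1 and Avil in neurons, and Alox5 in neutrophils, macrophages and mast cells.

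The promoters of Avil, Trpm5 and Rgs13 are shown because Avil moved in the opposite direction to the other two between normal tissue and tumors, as described below. Each is the run of 250 bases before the gene's start, 5′ to 3′ on the coding strand, from RefSeq on GRCm38.p6, the assembly of mm10 that the submitters' processing notes name. Windows were found for 6 of the 8 genes, with 7 windows in all, since Dclk1 has 2 starts. Capitals mark ATGCAAA or its reverse complement TTTGCAT, the core of the octamer that POU domain factors such as POU2F3 are known to bind.
Avil, chr10:127000459-127000708, plus strand: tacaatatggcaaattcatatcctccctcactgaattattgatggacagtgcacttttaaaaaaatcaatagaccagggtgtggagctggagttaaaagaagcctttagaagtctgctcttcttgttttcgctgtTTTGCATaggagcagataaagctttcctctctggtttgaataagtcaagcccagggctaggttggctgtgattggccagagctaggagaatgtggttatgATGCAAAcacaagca
Trpm5, chr7:143094643-143094892, minus strand: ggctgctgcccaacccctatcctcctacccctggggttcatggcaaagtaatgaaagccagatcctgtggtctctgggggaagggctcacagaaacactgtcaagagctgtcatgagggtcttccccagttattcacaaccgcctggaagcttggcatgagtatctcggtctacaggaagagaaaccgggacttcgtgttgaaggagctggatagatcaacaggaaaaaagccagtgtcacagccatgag
Rgs13, chr1:144177373-144177622, minus strand: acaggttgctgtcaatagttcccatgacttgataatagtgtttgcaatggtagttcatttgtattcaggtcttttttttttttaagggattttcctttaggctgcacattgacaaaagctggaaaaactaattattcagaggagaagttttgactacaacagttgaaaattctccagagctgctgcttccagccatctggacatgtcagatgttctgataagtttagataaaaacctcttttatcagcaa
The Avil window held 2 matches, which begin 115 and 15 bases before the start, and the other 6 windows held none. Of all 32851 promoter windows of that length, 4.12% held this core on either strand. The full octamer ATGCAAAT, which contains the core, was in 0 of the 7 windows and in 1.60% of all windows. AATCACT, a form of the core that GFI1 family factors are known to bind, was in 0 of the 7 and in 2.79% of all. A match is a description of these letters and not a binding site.

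On GRCm38, in the GENCODE annotation, Avil lies on chromosome 10 (127000709 to 127020994, plus strand) and overlaps Tsfm on the minus strand. Trpm5 lies on chromosome 7 (143069153 to 143094642, minus strand) and overlaps Tssc4 on the plus strand. Rgs13 is on chromosome 1 (144138654 to 144177372, minus strand), Pou2f3 on chromosome 9 (43123939 to 43210369, minus strand) and Gfi1b on chromosome 2 (28609450 to 28621982, minus strand). Dclk1 is on chromosome 3 (55242364 to 55539068, plus strand), Il25 on chromosome 14 (54932695 to 54935837, plus strand) and Alox5 on chromosome 6 (116410077 to 116461178, minus strand). Dclk1 overlaps, among others, Gm21954 (protein-coding) and Gm42609 (antisense) on the minus strand, whose levels were not examined. The library kit marks strand, but whether the quantification used it is not given in the sources used here. Tsfm measured 12.7 to 18.5 FPKM (fragments per kilobase of transcript, scaled to each library's mapped fragments) in tumors and 12.9 to 28.6 in normal tissue. Tssc4 measured 18.04 to 24.9 FPKM in tumors and 14.5 to 30.7 in normal tissue. Neither Tsfm nor Tssc4 passed the test between tumor and normal tissue under either label, with limma adjusted p from 0.151 to 0.819.

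Between 12074 and 13290 genes reached 1 FPKM in a library, and relative depth, estimated from the low values, ran from 0.690 to 1.87 of the median library. Its median was 1.15 in tumors and 0.896 in normal tissue. Maf, the gene the genotype label names, was not lower under the KO label: it measured 2.62 to 7.40 FPKM in the 9 KO tumors, 1.63 to 2.26 in the 4 WT-young tumors and 7.26 in the WT-old tumor. The libraries labelled KO-8-homo had 3.99 and 6.27 FPKM in normal tissue, where the WT libraries had 1.38 to 2.82. KO and WT are therefore used as labels throughout. Xist was high in 6 libraries, all of them labelled hetero: 4 of the 6 KO normal libraries and 2 of the 9 KO tumors, so that it ran partly with tissue under the KO label. In 2 tumors the squamous keratin Krt5 was high, with 1163 FPKM in KO-8-hetero tumor 2 and 250.2 in WT-young tumor 2, and at 0.150 to 0.512 in the other 12. The WT-old tumor carried B cell genes: Cd79a, a chain of the B cell receptor complex, measured 403.6 FPKM there and 1.45 to 58.7 in the other 13 tumors. It had the highest smooth muscle sum of the tumors (2877 FPKM) and the lowest neutrophil sum (30.4 FPKM). Both lay inside the ranges of normal tissue, 926 to 7123 and 3.11 to 35.4 FPKM. Its macrophage and mast cell sums, 919.8 and 47.0 FPKM, lay above normal tissue (at most 504.5 and 26.1 FPKM). How much normal tissue that piece held was not tested. The epithelial list (10 genes, among them Epcam and Cdh1) summed to 4320 to 11100 FPKM in tumors and 6319 to 15580 in normal tissue, so epithelium was present in every library.

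Trpm5 and Pou2f3 fell under both labels, Rgs13 fell under the KO label, and Avil rose under both. Dclk1 and Alox5 had lower means in tumors but did not pass the test. On log2(FPKM + 1) with limma and Benjamini-Hochberg adjustment over 13799 genes, threshold 0.05, 4 of the 6 genes that reached 1 FPKM in at least 4 libraries passed under the KO label. Of all genes tested, 47.2% passed there, 24.1% higher in tumors and 23.2% lower. Under the WT label 3 of the 6 passed, against 30.4% of all genes, 15.5% higher and 14.8% lower. A share this near the background is not by itself a property of these genes, and what follows gives each gene on its own. Gfi1b and Il25 did not reach the expression filter. Their values come from the same fit over all 20440 genes with any value above 0. In whole tissue, fewer tuft cells and less RNA per tuft cell cannot be told apart. The make-up of the pieces differed as well: all 8 smooth muscle genes fell under both labels, with median changes of -2.68 (WT) and -2.01 (KO) and sums of 173 to 2877 FPKM in tumors against 926 to 7123 FPKM in normal tissue. The part of smooth muscle in the changes below was not tested. No gene of the 6 separated all 14 tumors from all 10 normal libraries, a pattern that 3.43% of the tested genes showed with tumors lower and 3.28% with tumors higher. The looser pattern of no overlap within 1 label or between title groups was not counted over all genes.

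**Figure D1:**
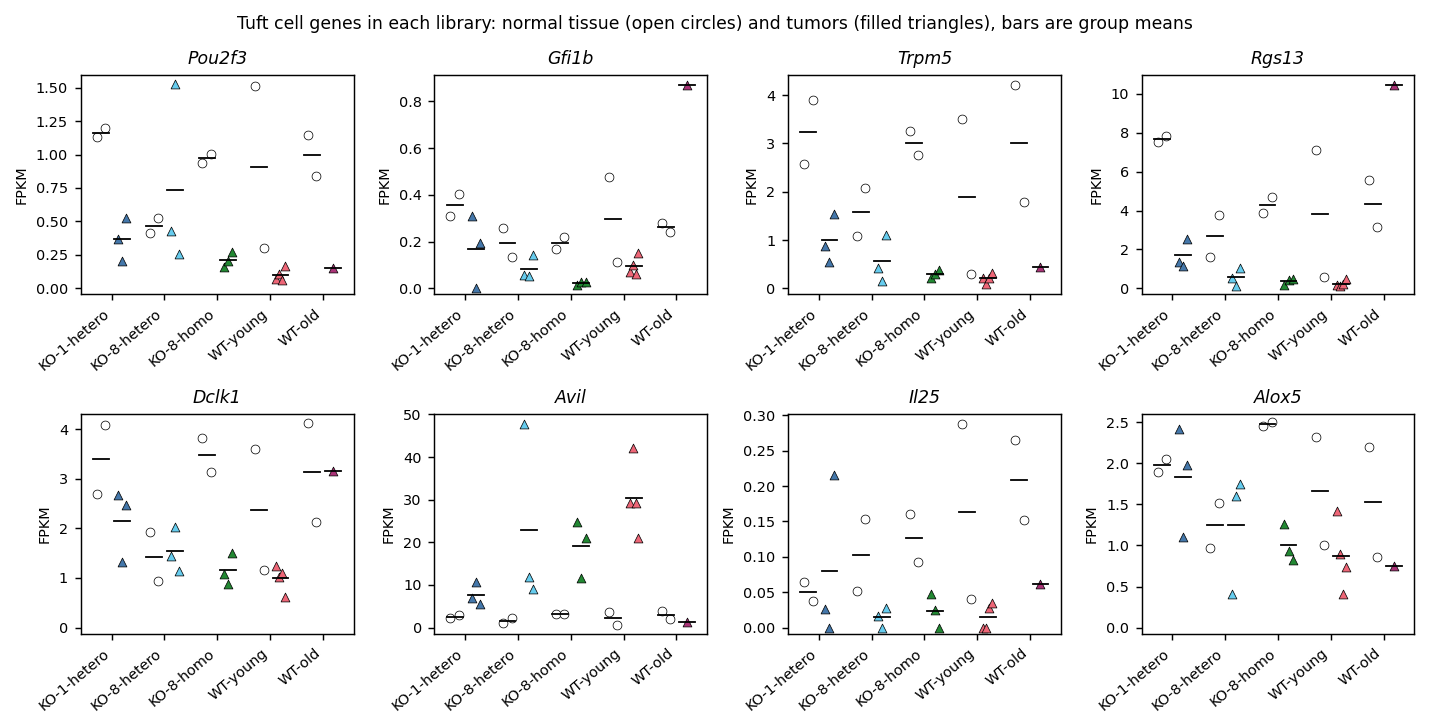
FPKM of the 8 tuft cell genes in each of the 24 libraries, by title group on the x axis; open circles are normal tissue, filled triangles tumors and bars the group means, with a separate y axis from 0 for each gene. Trpm5 and Rgs13 are low in most tumors, Avil is high in every tumor but that of WT-old, and the WT-old tumor stands out in Rgs13 and Gfi1b.

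Pou2f3 encodes the factor on which the tuft cell lineage depends. In normal tissue it ranged from 0.413 to 1.195 FPKM under the KO label (median 0.972, n = 6), and it measured 1.52, 0.302, 1.15 and 0.841 FPKM in the 4 WT libraries. In tumors it ranged from 0.163 to 1.53 FPKM under the KO label (median 0.273, n = 9), and it measured 0.0685, 0.104, 0.0624, 0.168 and 0.151 FPKM under the WT label. All 5 WT tumors lay below all 4 WT normal libraries, whereas KO tumors and KO normal tissue overlapped. The share of all genes with such a gap under the WT label was not counted. The change from normal tissue to tumor was -0.77 on the log2 scale under the WT label (SE 0.205, limma adjusted p = 0.00734), and without the 3 WT-old libraries it was -0.72 and did not pass (adjusted p = 0.0724). Under the KO label it was -0.40 (SE 0.161, adjusted p = 0.0458), and this call was lost when any of 11 of the 15 KO libraries was left out (adjusted p from 0.00368 to 0.104 over the 15).

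One KO tumor set the upper end of that range. KO-8-hetero tumor 2 had 1.53 FPKM of Pou2f3, the highest value of all 24 libraries, while its Trpm5 was 0.147 FPKM and its Rgs13 0.122 FPKM, the latter the lowest of all. This is the tumor with 1163 FPKM of Krt5, and it also had 693.5 FPKM of Sprr3, a cornified envelope protein that was at most 7.74 FPKM elsewhere. The other tumor with raised Krt5, WT-young tumor 2, had 0.104 FPKM of Pou2f3, within the range of the other WT-young tumors. The part of squamous tissue in the Pou2f3 value was not tested beyond these values.

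**Figure D2:**
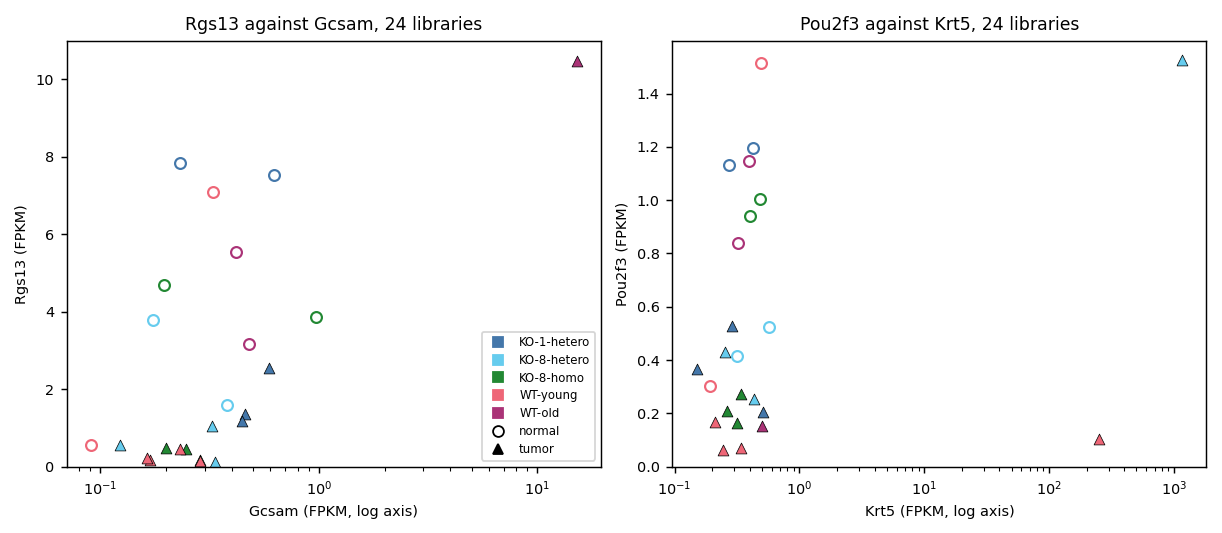
Rgs13 against the germinal centre gene Gcsam (left) and Pou2f3 against the squamous keratin Krt5 (right) in 24 libraries, in FPKM, with a log x axis in both; colours are title groups, open circles normal tissue and triangles tumors. One tumor of WT-old is high in both Rgs13 and Gcsam, and of the 2 tumors high in Krt5 one is high in Pou2f3 and the other is not.

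Gfi1b encodes a zinc finger repressor found in tuft cells. It stayed below 1 FPKM everywhere, with 0.132 to 0.405 FPKM in KO normal tissue (median 0.238, n = 6) and 0.476, 0.114, 0.281 and 0.241 FPKM in WT normal tissue. In KO tumors it ranged from 0 to 0.311 FPKM (median 0.0521, n = 9, listed at 0 in 1 library). The WT tumors had 0.0696, 0.1002, 0.0630, 0.152 and 0.871 FPKM, the last of these in WT-old. Tumor and normal ranges overlapped, and the changes of -0.19 under the KO label (SE 0.10, adjusted p = 0.14) and -0.06 under the WT label (SE 0.127, adjusted p = 0.799) did not pass. Under the KO label it did pass in 5 of 12 alternatives, such as a pseudocount of 0.1 (-0.97, adjusted p = 0.0406), quantile normalization (-0.24, 0.0362) and leaving out the WT-old libraries (-0.19, 0.0287). The sign under the WT label is not settled: leaving out WT-young normal 1 gave 0.01, and scaling to epithelial genes gave 0.10. The WT-old tumor's Gfi1b was the highest of all 24 libraries, and its 9 megakaryocyte and platelet genes summed to 45.4 FPKM, inside the 23.8 to 752.5 FPKM of all tumors. Pf4 alone gave 42.0 FPKM of its sum. The upper end of the range came from Ppbp, at 702.7 FPKM in KO-8-hetero tumor 2. The part of megakaryocytes in its Gfi1b was not tested, and these sums cannot show it.

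Trpm5 encodes the channel at the end of the chemosensory cascade. In KO normal tissue it ranged from 1.09 to 3.89 FPKM (median 2.67, n = 6), and in KO tumors from 0.147 to 1.55 FPKM (median 0.427, n = 9). The WT normal libraries had 3.51, 0.287, 4.22 and 1.78 FPKM, and the WT tumors 0.207, 0.0846, 0.203, 0.324 and 0.448 FPKM. Nearly all tumors lay below normal tissue. The exceptions were 2 KO tumors above 1 FPKM (KO-1-hetero tumor 3 and KO-8-hetero tumor 3), and WT-young normal 2, which fell among the tumors. Those 2 are also the tumors high in Xist. Averaged over tissue, Trpm5 was 0.487 ± 0.419 FPKM (SD, n = 14) in tumors and 2.55 ± 1.25 FPKM (SD, n = 10) in normal tissue.

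The change of Trpm5 was -1.16 on the log2 scale under the KO label (SE 0.246, limma adjusted p = 0.000681) and passed under every alternative run. Under the WT label it was -1.28 (SE 0.313, adjusted p = 0.00428). Without the 3 WT-old libraries the WT change was -1.0 with an adjusted p of 0.0751, which does not pass. By title group the difference was negative in all 5, from -0.75 in KO-8-hetero to -1.63 in KO-8-homo. WT-young normal 2, the library with the least Trpm5 in normal tissue, was also the lowest normal library in Avil, Rgs13, Pou2f3, Gfi1b and the tuft genes Sh2d7 (0.453 FPKM) and Gnat3 (0.636 FPKM).

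**Figure D3:**
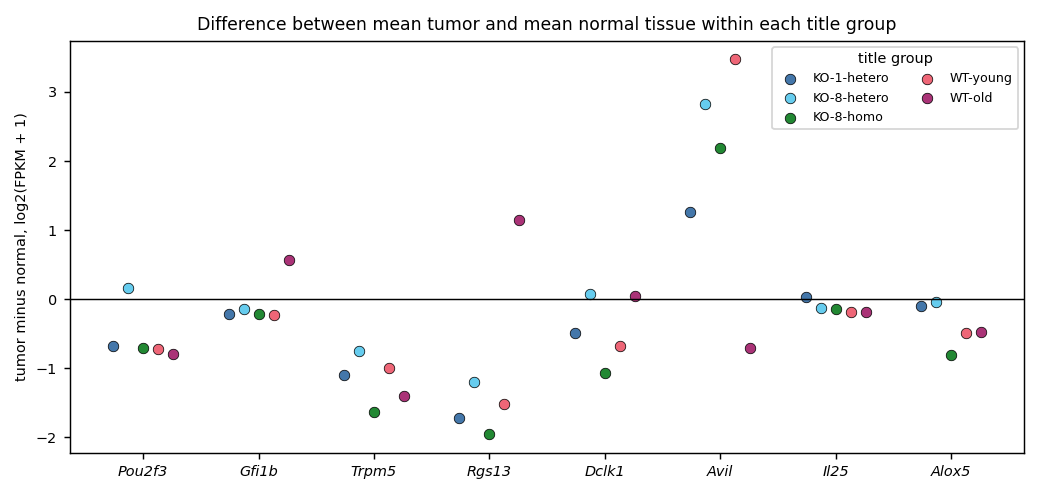
Tumor minus normal tissue for each tuft cell gene within the 5 title groups, as the difference of mean log2(FPKM + 1); each point is 1 title group, from 1 to 4 tumor and 2 normal libraries. Trpm5 is below 0 in all 5 groups, Avil is above 0 in 4 groups and at -0.71 in WT-old, and Rgs13 is below 0 in 4 groups and at 1.14 in WT-old.

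Rgs13 encodes a small regulator that speeds the shut-off of G protein signals. In KO normal tissue it ranged from 1.59 to 7.83 FPKM (median 4.28, n = 6) and in KO tumors from 0.122 to 2.56 FPKM (median 0.552, n = 9). WT normal tissue had 7.09, 0.562, 5.55 and 3.16 FPKM. The WT-young tumors had 0.173, 0.134, 0.221 and 0.459 FPKM, all below every normal library, and the WT-old tumor had 10.5 FPKM, above every other library. The fall under the KO label was -1.63 (SE 0.444, limma adjusted p = 0.0049) and passed under every alternative run. Under the WT label the change of -1.15 did not pass (SE 0.565, adjusted p = 0.122). Without the WT-old tumor it was -1.80 with an adjusted p of 0.00313, and without WT-young normal 2 it was -1.64 with 0.0375.

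The WT-old tumor broke the relation between Rgs13 and the other tuft genes. In the other 23 libraries Rgs13 was 0.829 to 2.93 times Trpm5 in FPKM (median 1.53), and in the WT-old tumor it was 23.4 times. Sh2d7, an adaptor gene that is also typical of tuft cells, was 0.779 to 2.14 times Trpm5 in those 23 libraries and 0.826 times in the WT-old tumor. That tumor had 19.4 FPKM of Mef2b and 15.1 of Gcsam, both germinal centre B cell genes, against at most 0.483 and 0.592 in the other 13 tumors. Its 10 B cell and germinal centre genes summed to 1155 FPKM, against 9.69 to 145.4 FPKM in the other 13 tumors and 10.97 to 104.5 FPKM in normal tissue. The part of B cells in its Rgs13 was not tested. Mast cells are another known site of Rgs13. All 10 mast cell genes rose in KO tumors, where 24.1% of all genes rose. The mast cell genes summed to 47.0 to 517.0 FPKM in the 14 tumors and 7.41 to 26.1 FPKM in normal tissue. Among the tumors, those of KO-1-hetero had mast cell sums of 221.6 to 517.0 FPKM and the most Rgs13 of the KO groups, 1.17 to 2.56 FPKM. The WT-young tumors had overlapping mast cell sums of 51.9 to 287.8 FPKM, with at most 0.459 FPKM of Rgs13. The part of mast cells in Rgs13 was not tested.

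Avil encodes advillin, an actin-binding protein of the villin family. It had the highest mean of the 8 genes in tumors, 19.5 ± 13.9 FPKM (SD, n = 14), against 2.52 ± 1.07 FPKM (SD, n = 10) in normal tissue. In KO normal tissue it ranged from 1.13 to 3.29 FPKM (median 2.57, n = 6) and in KO tumors from 5.58 to 47.8 FPKM (median 11.6, n = 9), with no overlap. WT normal tissue had 3.70, 0.609, 3.89 and 2.12 FPKM. The WT-young tumors had 29.2, 42.1, 29.3 and 21.1 FPKM and the WT-old tumor 1.39 FPKM. Thus 13 of the 14 tumors lay above every normal library, and the WT-old tumor lay among them.

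The rise of Avil was 2.48 on the log2 scale under the WT label (SE 0.633, limma adjusted p = 0.00564) and 2.09 under the KO label (SE 0.497, adjusted p = 0.00174). The KO call passed under every alternative run. The size differed between title groups, from 1.26 in KO-1-hetero through 2.19 in KO-8-homo and 2.83 in KO-8-hetero to 3.47 in WT-young, with -0.71 in WT-old. The 10 enteric neuron genes, markers of another cell type that can make Avil, summed to 4.17 to 35.9 FPKM in tumors and 13.3 to 43.4 FPKM in normal tissue. Of the 7 that were tested, 6 fell and none rose under the KO label. In the epithelial list 4 of 10 genes were lower and 0 higher under the KO label. Of all genes, 23.2% fell and 24.1% rose under that label. The part of either cell type in the Avil change was not tested.

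Dclk1 encodes a microtubule-associated kinase used as a tuft cell marker. It ranged from 0.939 to 4.08 FPKM in KO normal tissue (median 2.92, n = 6) and from 0.876 to 2.67 FPKM in KO tumors (median 1.45, n = 9). WT normal tissue had 3.60, 1.16, 4.13 and 2.14 FPKM, and WT tumors had 1.24, 1.03, 1.11, 0.611 and 3.16 FPKM, the last of these in WT-old. The groups overlapped under both labels. The change was -0.49 under the KO label (SE 0.234, limma adjusted p = 0.0895) and -0.63 under the WT label (SE 0.298, adjusted p = 0.11). It passed under the WT label without the WT-old tumor (-0.84, adjusted p = 0.0281) or without WT-young normal 2 (-0.87, adjusted p = 0.039). The title groups ranged from -1.06 in KO-8-homo to 0.08 in KO-8-hetero. In the WT-old tumor the enteric neuron genes summed to 27.5 FPKM, above the 5.43 to 14.6 FPKM of the WT-young tumors, and the part of neurons in Dclk1 was not tested.

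Il25 encodes the cytokine through which tuft cells call type 2 immunity. Its mean was the lowest of the 8 in both tissues, with 0.0371 to 0.161 FPKM in KO normal tissue (median 0.0788, n = 6) and 0 to 0.216 FPKM in KO tumors (median 0.0248, n = 9). WT normal tissue had 0.288, 0.0397, 0.265 and 0.152 FPKM. WT tumors were listed at 0 in WT-young tumors 1 and 2 and had 0.0273 and 0.0342 FPKM in the other WT-young tumors and 0.0614 FPKM in WT-old. In all, 5 of the 14 tumors and 0 of the 10 normal libraries were listed at 0. The change under the WT label was -0.21 (SE 0.0568, limma adjusted p = 0.0128), and it did not pass without the WT-old libraries (adjusted p = 0.0959), without WT-young normal 1 (0.0558) or without WT-old normal 1 (0.0593). Under the KO label it was -0.07 (SE 0.0446, adjusted p = 0.214). Without KO-1-hetero tumor 3, the tumor with 0.216 FPKM, it was -0.10 with an adjusted p of 0.0366. At this level a value rests on few fragments, and the log2(FPKM + 1) scale understates the change.

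Alox5 encodes 5-lipoxygenase, the first enzyme of leukotriene synthesis. It ranged from 0.970 to 2.50 FPKM in KO normal tissue (median 1.98, n = 6) and from 0.413 to 2.42 FPKM in KO tumors (median 1.27, n = 9). WT normal tissue had 2.32, 1.004, 2.195 and 0.860 FPKM, and WT tumors had 1.42, 0.896, 0.405, 0.742 and 0.752 FPKM. The groups overlapped under both labels, and the changes of -0.31 (KO label, SE 0.188, limma adjusted p = 0.176) and -0.47 (WT label, SE 0.239, adjusted p = 0.14) did not pass. Leukocytes that carry Alox5 were marked more strongly in tumors. Under the KO label 9 of 9 neutrophil genes and 6 of 9 macrophage genes rose, against 24.1% of all genes. The neutrophil genes summed to 30.4 to 1799 FPKM in tumors and 3.11 to 35.4 FPKM in normal tissue. How far leukocytes set the Alox5 level was not tested.

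Within normal tissue 5 of the genes followed Trpm5 closely, and Gfi1b and Il25 did so less. Across the 10 normal libraries, on log2(FPKM + 1), the correlation with Trpm5 was 0.967 for Avil (Spearman 0.927), 0.921 for Rgs13 (0.818), 0.886 for Pou2f3 (0.891), 0.816 for Alox5 (0.721) and 0.813 for Dclk1 (0.915). The 2 genes near the floor were looser, at 0.589 for Gfi1b (0.60) and 0.534 for Il25 (0.442). WT-young normal 2 gave part of this. Without the 2 libraries farthest from the median of Trpm5 the coefficient was 0.854 for Avil, 0.631 for Rgs13, 0.694 for Pou2f3, 0.765 for Alox5, 0.829 for Dclk1, 0.525 for Gfi1b and 0.241 for Il25. These coefficients describe libraries that share depth and tissue composition, and no test was made of them.

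Within tumors Avil was lower where Trpm5 was higher, and Rgs13 followed Trpm5 in all but the WT-old tumor. Across the 14 tumors the correlation with Trpm5 was -0.559 for Avil (Spearman -0.697), and -0.739 without the WT-old tumor (n = 13). For Rgs13 it was 0.517 (Spearman 0.921), and 0.955 without the WT-old tumor. For Pou2f3 it was 0.125 (Spearman 0.451), for Dclk1 0.451 (0.499) and for Alox5 0.561 (0.371). For Gfi1b it was 0.284 (0.371) and for Il25 0.679 (0.42), the latter 0.207 without the 2 tumors farthest from the median of Trpm5. Of the genes nearest to Trpm5 or Rgs13 over all libraries, which were picked for that likeness, Sh2d7 had 0.931, the short-chain fatty acid receptor gene Ffar3 0.856 and the taste G protein gene Gnat3 0.852. The tumors with the most Trpm5, those of KO-1-hetero and KO-8-hetero tumor 3, had 5.58 to 10.8 FPKM of Avil. The WT-young tumors, with 0.0846 to 0.324 FPKM of Trpm5, had 21.1 to 42.1 FPKM. Some pairs were as close in tumors as in normal tissue, such as Gfi1b with Rgs13 (0.889 against 0.70) and Dclk1 with Rgs13 (0.715 against 0.696). The WT-old tumor had the highest tumor value of Gfi1b (0.871 FPKM), Rgs13 (10.5 FPKM) and Dclk1 (3.16 FPKM). The coefficients of these pairs were not taken without it, so they may rest largely on that library. Whether any correlation differs between tumors and normal tissue was not tested.

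**Figure D4:**
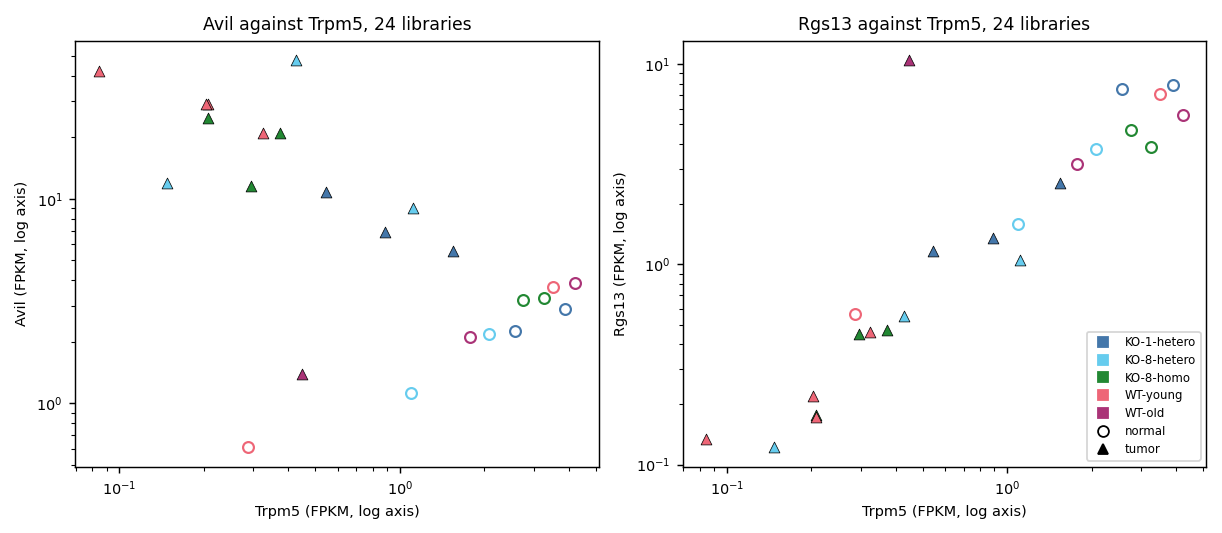
Avil (left) and Rgs13 (right) against Trpm5 in 24 libraries, in FPKM with log axes; colours are title groups, open circles normal tissue and triangles tumors. In normal tissue Avil rises with Trpm5 (r = 0.967), in tumors it is lower where Trpm5 is higher (r = -0.559), and Rgs13 stays near a line with Trpm5 in all but the WT-old tumor.

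Of 32 other genes associated with tuft cells, 31 were listed and 25 passed the expression filter. Under the KO label 6 of the 25 fell from normal tissue to tumor, 4 rose and 15 did not pass, with a median change of -0.01. Of all genes tested, 23.2% fell and 24.1% rose under that label, so these counts do not set the list apart. Among those that fell were Sh2d7 (-1.22, SE 0.249, limma adjusted p = 0.000478), Gnat3 (-1.17, SE 0.178, adjusted p = 2.55e-05), Ccdc28b (-1.0, SE 0.109, adjusted p = 7.4e-07) and Ltc4s, the leukotriene C4 synthase (-0.92, SE 0.204, adjusted p = 0.000965). Ccdc28b separated the tissues without overlap, at 7.21 to 11.7 FPKM in tumors and 13.8 to 24.3 FPKM in normal tissue. The 4 that rose were Alox5ap (0.66), Fyb (0.73), Nrep (1.09) and Sox9 (0.65), of which Alox5ap and Fyb are also leukocyte genes and Sox9 is a progenitor gene of the crypt. Under the WT label 5 of the 25 fell, 0 rose and 20 did not pass, with a median of 0.10. There 14.8% of all genes fell and 15.5% rose. The full list thus did not follow Trpm5, and its summed level was 123 to 525 FPKM in tumors and 127 to 189 FPKM in normal tissue, with 525 in the WT-old tumor. In that tumor, which carried B cell genes, the largest values of the list were Ptpn6 (138 FPKM), Rac2 (107.2), Spib (81.8) and Inpp5d (34.9). Sh2d7 was 0.37 FPKM and Gnat3 0.518 FPKM there, so the sum is not a measure of tuft cells. The part of other cell types in it was not tested. Below the filter, Chat, Hmx2 and Hmx3 fell under both labels, with log2 changes of -0.22 to -0.30. They were named after their values were seen.

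In the chemosensory cascade besides Trpm5, 3 of 6 tested genes fell and none rose under either label. Of all genes, 23.2% fell under the KO label and 14.8% under the WT label. The 3 that fell were Gnat3, Ffar3 (-0.66 under the KO label, SE 0.149, limma adjusted p = 0.00116) and Ffar2 (-1.30, SE 0.397, adjusted p = 0.0104), another short-chain fatty acid receptor. Gng13 (-0.13) and the phospholipase gene Plcb2 (0.32), which leukocytes also use, did not pass under the KO label.

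Of 12 eicosanoid genes besides Alox5, 7 rose and 2 fell under the KO label, and 5 rose and 0 fell under the WT label. Of all genes, 24.1% rose and 23.2% fell under the KO label, and 15.5% rose and 14.8% fell under the WT label. Alox12, the 12-lipoxygenase gene, rose by 3.38 (SE 0.542, limma adjusted p = 4.49e-05) and Alox15 by 2.82 (SE 0.403, adjusted p = 1.3e-05) under the KO label. Alox5 was the 1 of these 3 lipoxygenase genes that did not rise. Ptges, a prostaglandin E synthase gene, rose by 1.11 (SE 0.218). The prostaglandin genes more closely tied to tuft cells, Ptgs1 (-0.08, adjusted p = 0.821) and Hpgds (0.60, adjusted p = 0.0738), did not pass under the KO label.

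Of 15 tested genes of the type 2 response besides Il25, 7 rose and 0 fell under the KO label, and 4 rose and 0 fell under the WT label. The share of all genes that rose was 24.1% under the KO label and 15.5% under the WT label. Il33, an alarmin of the same response, rose by 1.42 (SE 0.276, limma adjusted p = 0.000304) and its receptor gene Il1rl1 by 3.04 (SE 0.538, adjusted p = 0.000123) under the KO label. Il4ra, the shared receptor chain for interleukins 4 and 13, rose by 1.22 (SE 0.183, adjusted p = 2.27e-05), and Arg1 by 3.76 (SE 0.797, adjusted p = 0.000667). Il17rb, a chain of the Il25 receptor, did not pass (-0.02, adjusted p = 0.91). Nor did Retnlb, whose median was 20.9 FPKM in tumors (3.56 to 1125) and 687.5 FPKM in normal tissue (3.75 to 3741). The 21 genes of the list besides Il25 had a median sum of 272.3 FPKM in tumors and 825.2 FPKM in normal tissue. Il1rl1 is also a mast cell gene and Arg1 a myeloid one, and both cell types were marked more strongly in tumors. The cytokine genes Il4, Il5 and Il13 averaged at most 0.1004 FPKM in either tissue.

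Of 9 tested factors of the secretory lineages and their Notch control, 4 fell, 2 rose and 3 did not pass under the KO label, where 23.2% of all genes fell. Under the WT label 4 fell, 1 rose and 4 did not pass, where 14.8% of all genes fell. Atoh1, which directs the secretory fate, fell by -1.43 under the KO label (SE 0.276, limma adjusted p = 0.000297), Gfi1, a relative of Gfi1b in goblet and Paneth cells, by -1.01 (SE 0.21, adjusted p = 0.000576) and Neurog3, of enteroendocrine cells, by -0.81 (SE 0.155, adjusted p = 0.00027). Sox4 rose by 1.78 (SE 0.447, adjusted p = 0.00273).

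**Figure D5:**
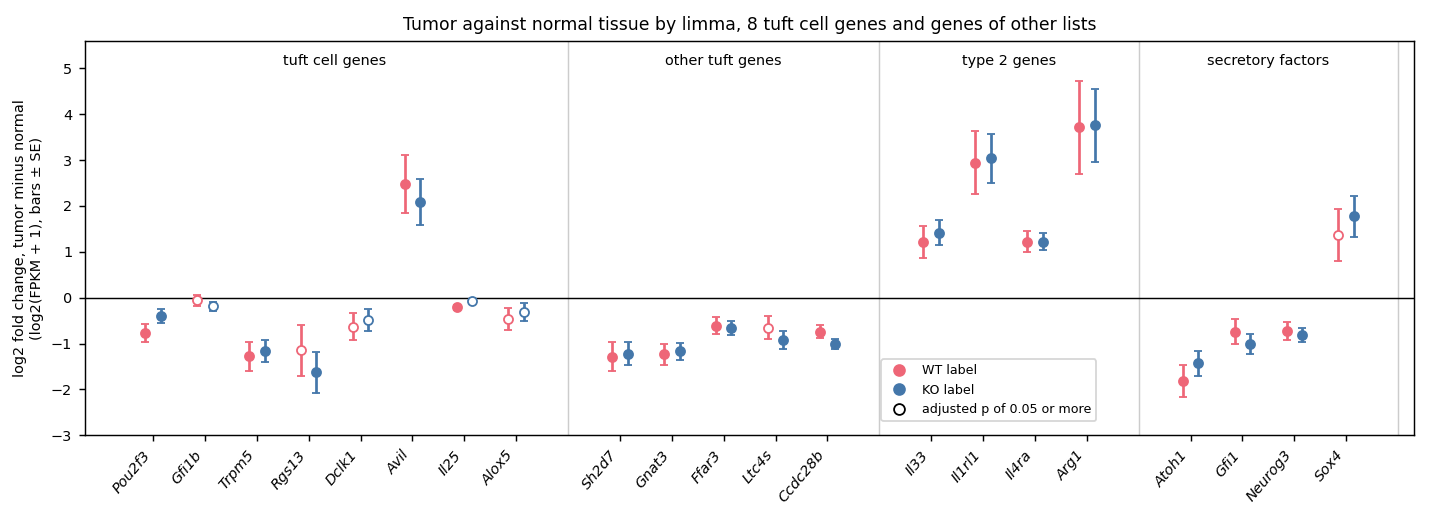
Change from normal tissue to tumor by limma on log2(FPKM + 1), bars ± SE, for the 8 tuft cell genes and for genes of 3 other lists; red is the WT label, blue the KO label, and open points have an adjusted p of 0.05 or more. Trpm5 lies beside Sh2d7 and Gnat3 near -1.2 while Avil lies above 2, and the type 2 genes Il33, Il1rl1, Il4ra and Arg1 are above 0.

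The changes were also read on a scale set by the 10 epithelial genes. Of these, 4 were called lower in tumors under the KO label and 2 under the WT label, and 0 higher. Cdx1 (mean 52.4 FPKM in tumors, 184.4 in normal tissue) and Cdx2 (17.9 and 62.3) differed most in proportion. Cdh1 (202.2 and 208.3) and Krt18 (555.5 and 526.6) were close. The scale is therefore not a measure of epithelial content alone. Scaling each library to the 10 genes raised the median change of all tested genes to 0.61 under the WT label and 0.50 under the KO label. The split of called genes became 6678 higher and 400 lower in place of 2143 and 2049 under the WT label, and 7011 and 726 in place of 3321 and 3199 under the KO label. Scaling to the median of each library gave 1707 higher and 2445 lower, and 2649 and 3854. Trpm5 still fell on the epithelial scale, by -0.99 (limma adjusted p = 0.0147) and -0.88 (0.00552), and so lay further below the median of all genes than that value. Rgs13 fell under the KO label (-1.30, adjusted p = 0.0299), and Avil rose under both (2.95 and 2.54). Pou2f3 fell under the WT label (-0.59, adjusted p = 0.0427) and did not pass under the KO label (-0.20, adjusted p = 0.36).

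The comparison of KO with WT, which the series title names, gave no call among these genes. In tumors 0 of the 6 tested genes passed, against 0.00725% of all genes (1 gene). An unadjusted p under 0.05 was found for 0 of the 6 and for 1147 of the 13799 genes. Pou2f3 was 0.439 ± 0.424 FPKM (SD, n = 9) in KO tumors and 0.111 ± 0.0476 FPKM (SD, n = 5) in WT tumors, a log2 difference of 0.33 (SE 0.17, limma adjusted p = 0.63). Avil was 16.6 ± 13.3 FPKM (SD, n = 9) in KO and 24.6 ± 15 FPKM (SD, n = 5) in WT tumors, a difference of -0.34 (SE 0.526, adjusted p = 0.903). In normal tissue 0 of 6 passed, against 0.0% of all genes. In that tissue 0 of 6 had an unadjusted p under 0.05, against 645 of the 13799 genes. Trpm5 was 2.61 ± 0.968 FPKM (SD, n = 6) and 2.45 ± 1.77 FPKM (SD, n = 4) there, a difference of 0.20 (SE 0.302, adjusted p = 1). The test of whether the tumor change depended on the label called 0 of 6, against 0.0% of all genes, with differences from -0.47 for Rgs13 (SE 0.718) to 0.37 for Pou2f3 (SE 0.261). None of the 6 had an unadjusted p under 0.05 in that test, against 654 of the 13799 genes. The standard error of 0.718 for Rgs13 is wide against its tumor change.

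Taken by title group, the KO-1-hetero tumors had less Avil than the WT-young tumors. This was the 1 call among the 6 tested genes, where 2.88% of all genes were called (1.63% higher and 1.25% lower). Of the 6, 4 had an unadjusted p under 0.05 (Avil, Rgs13, Dclk1 and Alox5), as did 2632 of the 13799 genes tested. The levels of Avil were 6.85, 10.8 and 5.58 FPKM in KO-1-hetero tumors and 29.2, 42.1, 29.3 and 21.1 FPKM in WT-young tumors, without overlap, a difference of -1.85 (SE 0.459, limma adjusted p = 0.0406). That call did not pass when any of 6 of the 7 tumors was left out (adjusted p from 0.0447 to 0.17 over the 7), or with a term for Xist (-1.54, adjusted p = 0.112), or without the 2 tumors high in Krt5 (-1.68, adjusted p = 0.0926). Rgs13 was 1.35, 1.17 and 2.56 FPKM in KO-1-hetero tumors, above all 4 WT-young tumors, a difference of 1.08 that did not pass (SE 0.39, adjusted p = 0.14). Trpm5 (0.886, 0.545 and 1.55 FPKM), Dclk1 (2.67, 1.32 and 2.48 FPKM) and Pou2f3 (0.367, 0.206 and 0.528 FPKM) were likewise above all 4 WT-young tumors without passing, with differences of 0.70 (adjusted p = 0.267), 0.64 (0.184) and 0.31 (0.482). In the same comparison 5 of 8 tested B cell genes and 3 of 8 smooth muscle genes rose, with medians of 1.83 and 1.88, and the mast cell genes summed to 221.6 to 517.0 FPKM in KO-1-hetero against 51.9 to 287.8 FPKM in WT-young tumors. Alox5, at 2.42, 1.11 and 1.99 FPKM in KO-1-hetero tumors, overlapped the WT-young tumors, with a difference of 0.60 (SE 0.264, adjusted p = 0.223). The part of these cell types in the differences was not tested. How many of all genes show no overlap between these KO-1-hetero and WT-young tumors was not counted.

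In KO-8-hetero tumors 0 of 6 genes passed against WT-young tumors, where 0.00725% of all genes did. Of the 13799 genes tested, 961 had an unadjusted p under 0.05, and 1 of the 6 did. That gene was Pou2f3, at 0.430, 1.53 and 0.254 FPKM, a difference of 0.59 (SE 0.218, limma adjusted p = 0.705). Avil in these tumors was 47.8, 11.9 and 9.05 FPKM, so that 1 tumor lay above and the other 2 below all WT-young tumors. In KO-8-homo tumors 0 of 6 passed, where 0.457% of all genes did (0.058% higher and 0.399% lower). An unadjusted p under 0.05 was found there for 0 of the 6 and for 1399 of the 13799 genes. Trpm5 (0.207, 0.295 and 0.374 FPKM) and Rgs13 (0.176, 0.451 and 0.469 FPKM) in the KO-8-homo tumors lay in or just above the range of the WT-young tumors. All 3 comparisons share the WT-young tumors, so their values are not independent.

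The genes whose levels followed each of the 8 most closely were ranked by the correlation over 24 libraries after the mean of each title group and tissue was removed. For Trpm5 they were Sh2d7 (0.972), Gpr180 (0.949) and Ffar3 (0.946), and for Rgs13 Gpr180 (0.96), Gnat3 (0.948) and Slc50a1 (0.936). For Avil they were Maged2 (0.934), Tm4sf4 (0.925) and Asb1 (0.90), none of them shared with Trpm5 or Rgs13. Pou2f3 was followed by Tmem182 (0.908), Chd3os (0.905) and Hhatl (0.901), and Dclk1 by Kcnd3 (0.917), B3galnt1 (0.905) and Lrch2 (0.904). The genes nearest to Gfi1b (Kit 0.815, Satb1 0.812 and Enpp1 0.81), Il25 (Rnase4 0.911, Rabepk 0.866 and Crisp3 0.855) and Alox5 (Aqp1 0.851, Trib3 0.842 and Metrn 0.838) included no other gene of the tuft lists. These are the highest of 13799 coefficients each and describe these libraries only.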

How the data were processed

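The authors deposited 1 table per library with FPKM values by gene symbol, per the file headers. Per the labels' protocols, the kits were miRNeasy Mini for RNA and TruSeq Stranded mRNA for libraries. The submitters' processing notes name TopHat2 2.1.1, Bowtie2 2.2.8, SAMtools 0.1.18 and Cuffdiff 2.2.1 with mm10. The annotation and the strand setting are not given in the sources used here. FPKM tables hold no fragment totals, so depth is known only relative to other libraries and no counting interval is given.

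Tests ran on log2(FPKM + 1), since the deposited values are not counts. This scale understates the change of low genes. Genes with at least 1 FPKM in at least 4 of the 24 libraries were kept, 13799 in all. limma 3.58.1 (R 4.3.3; lmFit, contrasts.fit, eBayes with trend) was fitted on all 24 libraries, two-sided, with Benjamini-Hochberg adjustment over the genes tested and a threshold of 0.05. A model of genotype label by tissue gave the comparisons of labels and tissues, and a model of the 10 groups of title and tissue gave those of title groups. Tables and figures were made with Python 3.11.15, pandas 2.3.3, numpy 2.4.6 and matplotlib 3.10.9. The fit was tested on simulated data.

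Relative depth was estimated from ratios of low values between libraries. Coordinates come from the GENCODE annotation and promoters from RefSeq, both on GRCm38.

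The 8 genes are always named. From each list, up to 4 genes past the threshold in tumor against normal tissue under the KO label were named by smallest p, with the 3 genes nearest to each of the 8 by correlation, and markers of other cell types where their values stand beside a gene. The other genes named were chosen after their values were seen. Deviations of same-numbered KO-8-hetero and WT-young tumors correlated in all 3 pairs (0.165 to 0.439), and a block on the number left 0 of the 6 genes called between them, as without it. The groups differ in genotype label, and the highest of these values joins the 2 tumors high in Krt5, so the values do not show pairing. One gene of the B cell list is not reported here. The genes and all lists were chosen with earlier results of these data known.

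Alternatives were pseudocounts of 0.1 and 0.5, no filter, a filter of 12 libraries, scaling to the median or to epithelial genes, quantile normalization, no variance trend, array weights, a term for Xist, a replicate block, leaving out the WT-old libraries and leaving out each library in turn. Leaving out the 2 tumors high in Krt5, alone or with the WT-old tumor, was added after seeing the data.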

Additional observations from a re-analysis of the deposited data

Results flagged for a closer look

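Of 40 groups of 4 to 9 libraries (each of the 8 genes in tumors and normal tissue of each label, and in WT-young tumors), 7 held a library whose value lay far from the others, by the share of the group's range that its gap to the nearest value took. For normally distributed values chance flags about 1 in 20 groups. Here the rule was applied to FPKM without a log, all 7 flags were high values, and the WT-young tumors also lie inside the WT tumor groups. How many flags chance would give is therefore not known. Among the 5 WT tumors the flagged library was the WT-old tumor in 3 genes, with 3.16 FPKM of Dclk1, 0.871 FPKM of Gfi1b and 10.5 FPKM of Rgs13. Among the 9 KO tumors, KO-8-hetero tumor 2 stood apart with 1.53 FPKM of Pou2f3 and KO-8-hetero tumor 1 with 47.8 FPKM of Avil. KO-1-hetero tumor 3 stood apart with 0.216 FPKM of Il25 and 2.56 FPKM of Rgs13.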

How the results depend on the processing

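The number of the tested genes called in tumor against normal tissue under the WT label was 3. It was 1 with the stricter filter, under which 4 of the 8 genes were tested, 1 with the replicate block, and 5 with quantile normalization or array weights. Leaving out 1 library gave 3 to 5, with 5 without WT-young normal 2 or without the WT-old tumor. Under the KO label it was 4, and 2 with the stricter filter, 6 with quantile normalization or array weights, and 3 with epithelial scaling, the Xist term, the replicate block or without the WT-old libraries. Between KO and WT tumors it was 0, and 1 with array weights. Between KO-8-homo and WT-young tumors it was also 0, and 1 with array weights. Between KO-1-hetero and WT-young tumors it was 1, and 0 with a pseudocount of 0.1, without a filter, with epithelial scaling, with the Xist term, without the 2 tumors high in Krt5 and without these and the WT-old tumor, and 3 with array weights. Leaving out 1 tumor gave 0 to 1 there, with 1 only without KO-1-hetero tumor 2. Gfi1b under the WT label changed sign to 0.10 with epithelial scaling, 0.02 with the replicate block and 0.01 without WT-young normal 1, and leaving out 1 library moved it from -0.21 to 0.01. The cause was not tested. Trpm5, Rgs13 and Avil under the KO label kept their direction and their calls under all alternatives run.

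Same-numbered tumor and normal libraries of a title group mostly did not deviate together (correlations of -0.159 to 0.355 over 8 pairs, 1 of them over 0.1). Same-numbered KO and WT-young tumors had -0.224 to 0.439 over 9 pairs, 4 of them over 0.1. Numbers were therefore not taken to pair samples. The highest value, 0.439, joins the 2 tumors high in Krt5. For tumor against normal tissue the replicate block compares only same-numbered libraries of a title group. Libraries without such a partner, among them some WT-young tumors, add nothing to its change. With this block the WT calls of Avil (2.13, adjusted p = 0.127) and Pou2f3 (-0.79, 0.119) did not pass. In KO-1-hetero and KO-8-hetero the tumors with a partner were low in Xist and their partners high. Whether same-numbered libraries share an animal is not known, so the block does not decide whether the WT calls hold. With the replicate block the genes called over the whole table numbered 2230 in place of 4192 under the WT label and 5342 in place of 6520 under the KO label. Array weights called 2355 genes between KO and WT tumors in place of 1. Depth limits Gfi1b and Il25, which stayed below 1 FPKM in every library.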
